A study of Homo sapiens with 6 samples.

Results

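Constitutive CTCF and cohesin sites are described here, meaning the places in the genome of IMR90 cells where both proteins were listed as bound in every condition of the study. Peaks of the 3 CTCF lists that overlapped by at least 1 bp on the autosomes and chromosome X were merged into 9720 CTCF loci. A locus was selected on its listing: it had to hold a peak from all 3 CTCF lists and to overlap a peak in each of the 3 SMC1 lists. This rule selected 2459 of 9720 loci (25.3%, exact binomial 95% interval 24.4 to 26.2, counting error only), and these are called members below.

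CTCF is a zinc-finger protein that binds a long asymmetric DNA motif and insulates neighbouring stretches of chromatin. Cohesin is a ring-shaped complex, with SMC1 as a subunit, that extrudes chromatin into loops until it meets CTCF. Positions that hold both proteins are known as anchors of loops and borders of topologically associating domains, and cohesin also loads and pauses at active promoters that lack CTCF.

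IMR90 are primary fibroblasts of human fetal lung, and the 6 libraries were made by CUT&Tag, in which an antibody tethers a transposase to chromatin so that the DNA around the bound protein is cut out and sequenced. Each antibody was used on control cells of low passage, described by the study as proliferating and DMSO-treated, on low-passage cells given inflachromene (ICM), a small molecule that binds HMGB proteins, and on high-passage, senescent cells. The titles carry a p number of 21 for the CTCF control, 16 for both ICM libraries and the SMC1 control, and 34 for both senescent libraries, and they give 6 days of treatment for the CTCF ICM library only. There was 1 library per group, from 1 cell line, so no difference between conditions was tested, and condition, p number and library cannot be told apart.

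The lists held 4673, 6728 and 8577 CTCF peaks (control, ICM, senescent) and 14883, 17809 and 12927 SMC1 peaks, after 1 mitochondrial peak was set aside in each. Each list was the top 1% of regions of its own library, the lists do not give the read depth, for which the methods of the study state only a minimum, and no common scale between lists is known. Signal was therefore read as a percentile, the rank of a peak by total signal among the peaks of its own list, and where a list held several peaks at a member, the values are those of its strongest peak. Intervals below are 95% intervals for counting error over loci, which are not replicates of a condition.

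The CTCF motif was not part of the rule. No genome of the build of the files was used here, so the motif was looked for in the RefSeq promoter windows (GRCh38.p14) at members, which run from 250 bases before to 50 bases after an annotated start. A 12-base core consensus of the CTCF motif, searched on both strands, was found in 34 of 1758 windows at members (1.93%, 1.34 to 2.69), against 0.472% of all 34961 promoter windows. In windows at loci of all 3 CTCF lists it was found in 4.90% (3.13 to 7.27) where SMC1 was listed in 1 or 2 lists, and in 5.20% (2.41 to 9.65) where SMC1 was in no list. These shares cover promoter windows only and say nothing of matches elsewhere under the peaks. The study kept CTCF peaks with a canonical motif by its own search under whole peaks, and that filter was not rerun here. The CTCF lists used here held slightly more peaks than the paper counts after that filter. Shown here are the 250 bases before the start of the 5 genes with the highest mean percentile among members with a match, on the strand of the gene, with the matched core in capitals.

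WDR38, chr9:124853210-124853459, plus strand: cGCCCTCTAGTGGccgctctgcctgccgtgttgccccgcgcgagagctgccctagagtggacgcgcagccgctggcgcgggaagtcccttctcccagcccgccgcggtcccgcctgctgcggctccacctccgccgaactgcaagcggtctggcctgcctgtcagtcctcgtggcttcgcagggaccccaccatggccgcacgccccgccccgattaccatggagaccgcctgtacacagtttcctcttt
SCIRT, chr6:44074653-44074902, minus strand: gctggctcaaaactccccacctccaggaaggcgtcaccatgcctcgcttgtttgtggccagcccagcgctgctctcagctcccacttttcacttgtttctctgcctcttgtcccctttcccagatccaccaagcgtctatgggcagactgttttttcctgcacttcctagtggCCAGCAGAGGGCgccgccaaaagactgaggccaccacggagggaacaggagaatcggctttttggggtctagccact
LOC105370680, chr14:102524570-102524819, plus strand: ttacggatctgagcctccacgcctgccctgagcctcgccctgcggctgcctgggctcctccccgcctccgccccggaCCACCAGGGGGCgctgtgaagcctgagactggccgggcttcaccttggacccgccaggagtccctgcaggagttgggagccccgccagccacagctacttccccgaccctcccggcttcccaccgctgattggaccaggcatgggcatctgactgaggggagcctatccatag
ODR4, chr1:186375588-186375837, plus strand: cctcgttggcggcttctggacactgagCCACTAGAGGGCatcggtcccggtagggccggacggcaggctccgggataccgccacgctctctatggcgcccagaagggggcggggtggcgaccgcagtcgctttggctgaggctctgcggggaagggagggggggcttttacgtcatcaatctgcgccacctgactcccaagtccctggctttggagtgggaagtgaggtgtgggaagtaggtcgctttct
AHCYL1, chr1:109984515-109984764, plus strand: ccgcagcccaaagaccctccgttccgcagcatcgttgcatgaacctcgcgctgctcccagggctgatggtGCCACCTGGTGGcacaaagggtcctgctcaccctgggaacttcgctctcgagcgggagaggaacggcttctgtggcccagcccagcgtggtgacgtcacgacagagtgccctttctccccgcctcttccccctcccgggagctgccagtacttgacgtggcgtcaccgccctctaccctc

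The summit of a peak, taken as the middle of the stretch where its signal was highest, lay within 211 bp of these matches in all 6 lists at all 5 genes. At WDR38 the CTCF summits of control, ICM and senescent cells lay 38, 183 and 201 bp from the matched core and the SMC1 summits 192, 192 and 187 bp from it. At SCIRT, a long non-coding RNA gene, the CTCF summits lay 53, 80 and 72 bp from the core and the SMC1 summits 74, 80 and 94 bp from it. At ODR4 the CTCF summits lay 39, 95 and 95 bp from the core and the SMC1 summit 203 bp from it in every condition. At AHCYL1, which encodes a partner of the inositol trisphosphate receptor, the CTCF summits of control and ICM cells lay 45 bp from the core and that of senescent cells 203 bp. Over the 30 members with a single match the median distance from core to CTCF summit was 51.5 bp (38 to 91) in the control library, 62 bp after ICM and 58.5 bp in senescence. The median distance to the SMC1 summit was 82.5 bp (69 to 107), 114 bp (76 to 160) and 137 bp (67 to 187) in the same order. These intervals overlapped.

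Promoter windows at members were rich in G and C, with a median GC content of 66.0% and 26 CpG dinucleotides, against 58.7% and 14 over all windows. This was not particular to members. Windows at 3-list CTCF loci with SMC1 in 1 or 2 lists and in none had 67.0% and 67.7% GC, with 28 CpG in both. The GC box letters GGGCGG (either strand) were in 72.4% of member windows and in 45.0% of all, and in 69.9% and 66.5% of windows in those 2 other classes. The letters CCAAT were in 36.6% of member windows against 34.6% of all, and in 24.5% and 19.7% of those at 3-list CTCF loci with SMC1 in 1 or 2 lists and in none. The letters GCATGCGC, a core of the NRF1 site, were in 5.57% (4.55 to 6.75) of member windows, and AAGATGGCG, a core of the YY1 site, in 3.13%, against 3.06% and 1.76% of all. With SMC1 in 1 or 2 lists and in none, GCATGCGC was in 3.84% and 2.89% of windows and AAGATGGCG in 5.33% and 5.78%. The AP-1 letters TGANTCA were in 4.89% of member windows, below the 7.68% of all windows, and in 4.69% and 1.16% in the other classes of 3-list loci. Letters of this kind follow base composition, and a match is a description of the window, not a bound site.

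The next question was how often CTCF and cohesin listing went together. Of all CTCF loci 4026 (41.4%) were in all 3 CTCF lists, and 3949 (40.6%) overlapped SMC1 peaks in all 3 SMC1 lists. Members made up 61.1% (59.6 to 62.6) of the 4026, whereas SMC1 was in all 3 lists at 686 loci (35.1%) of 2 CTCF lists and at 804 loci (21.5%) of a single CTCF list. Because the rule used both listings, these shares are a description. Wider loci meet more peaks, and the median width was 2343 bp (716 to 13529) for members and 1072 bp for loci of a single CTCF list. Loci of all 3 CTCF lists that were not members were nearly as wide as members, with medians of 2152.5 bp where SMC1 was in 1 or 2 lists and 2114 bp where it was in none. Of 654 loci of all 3 CTCF lists that missed membership by a single SMC1 list, 356 lacked the senescent list, 156 the control list and 142 the ICM list, and the senescent SMC1 list was also the shortest.

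**Figure D1:**
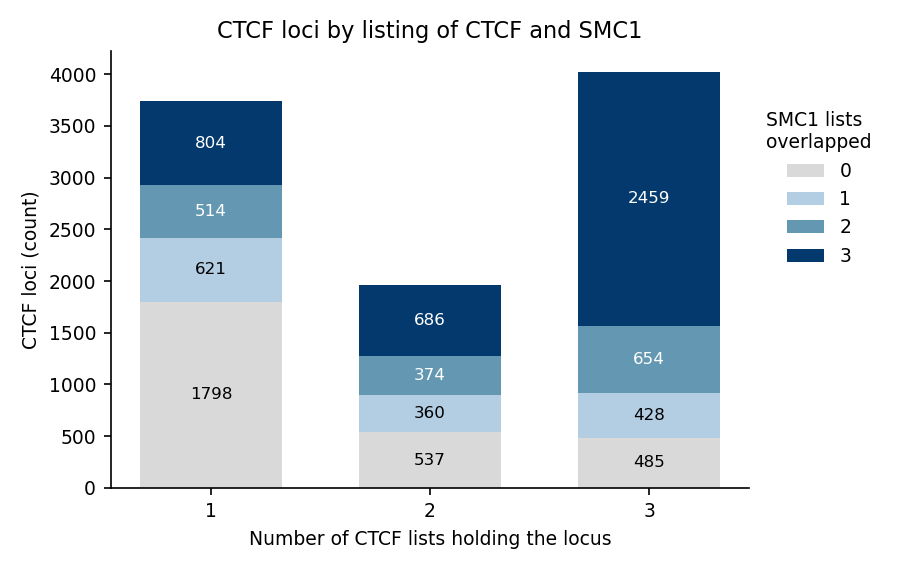
Bars give the number of CTCF loci found in 1, 2 or 3 CTCF lists, split by the number of SMC1 lists with an overlapping peak. The darkest segment of the right bar is the 2459 members, the largest of the 12 classes.

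The edge of the rule was sharp for nearly all members. The smallest of the 3 overlaps between a member and an SMC1 peak had a median of 849 bp, and only 1 member overlapped by less than 100 bp. That member, 59234 bp before the start of MYL10, a myosin light chain gene, met its control SMC1 peak over 4 bp. The next smallest overlaps, both with the ICM list, were 302 bp at a member inside NR6A1 and 327 bp at a member by the start of MIDN. Just outside were loci near BBC3, which promotes apoptosis, PALM2AKAP2, and PIEZO1, a mechanosensitive ion channel, which lay 13, 63 and 161 bp from the nearest ICM SMC1 peak.

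Members stood high in their lists, which the rule favours. Their median percentile of total signal was 64.9 (63.2 to 66.6) in control, 75.9 in ICM and 80.1 in senescent CTCF, and 78.9, 83.3 and 78.0 in SMC1. The CTCF percentiles rose with the length of the list, from 4673 to 8577 peaks. Peaks at members were 53.5%, 36.8% and 30.3% of the CTCF lists and held 65.3%, 53.1% and 44.6% of their nuclear signal. In SMC1 they were 18.3%, 15.9% and 20.7% of the lists and 27.2%, 24.6% and 28.9% of the signal. Above the median of all 6 lists stood 1032 members (42.0%), and only 8 members were above the median of none. In 2013 members (81.9%) every list held exactly 1 peak.

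The strongest members by highest signal included positions that are no ordinary CTCF sites. The member with the highest mean percentile lay on chromosome 1 from 633431 to 634898, over MTATP6P1, and the member ranked 3 lay at 629489 to 630519, over MTND2P28. Both genes are nuclear pseudogene copies of mitochondrial DNA. Highest signal over MTATP6P1 was 945, 762 and 582 in the CTCF lists and 458, 634 and 604 in the SMC1 lists (control, ICM, senescent), and the CTCF and SMC1 summits coincided to within 1 bp. Reads of such copies and of the mitochondrial genome cannot be told apart in peak lists.

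Among unique positions, WDR38, which encodes a WD-repeat protein, headed the list, with a member on chromosome 9 from 124851676 to 124854940. Its highest signal was 373, 496 and 241 in CTCF and 91, 83 and 67 in SMC1, so that it ranked above percentile 99 in every list. The member before EPHB3, an ephrin receptor gene, had CTCF summits within 5 bp of each other and SMC1 summits within 28 bp. Its total CTCF signal was 104820, 162940 and 57490 (control, ICM, senescent), at percentiles 98.2, 98.8 and 99.5 of the 3 lists. DHX8, an RNA helicase of the spliceosome, had a member 197 bp before its start, and a further strong member lay 15317 bp before CTR9, a subunit of the PAF1 elongation complex. At protein-coding starts the highest percentiles of total signal included those of WDR38, RHOF, EPHB3, SARS2 and TEDC1. RHOF, a small GTPase gene, was the most exact of these, with CTCF and SMC1 summits at the same base in all 3 conditions.

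CTCF and SMC1 peaked close together within members. The median distance from the CTCF summit to the nearest SMC1 summit was 56 bp (53 to 60) in the control libraries, 62 bp (57 to 66) after ICM and 61 bp (56 to 66) in senescence, and the 3 intervals overlapped. Within 100 bp lay 66.7%, 65.8% and 65.3% of members, and beyond 1 kb 3.25%, 2.56% and 4.80%. The distance was longest at members within 1 kb of an annotated 5′ end, with medians of 73, 80 and 74 bp, and shortest at members over 10 kb away, with 45, 49.5 and 50 bp. Whole peaks, not summits, chose the members, so the distance was not set by the rule, though a nearby SMC1 peak was.

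**Figure D2:**
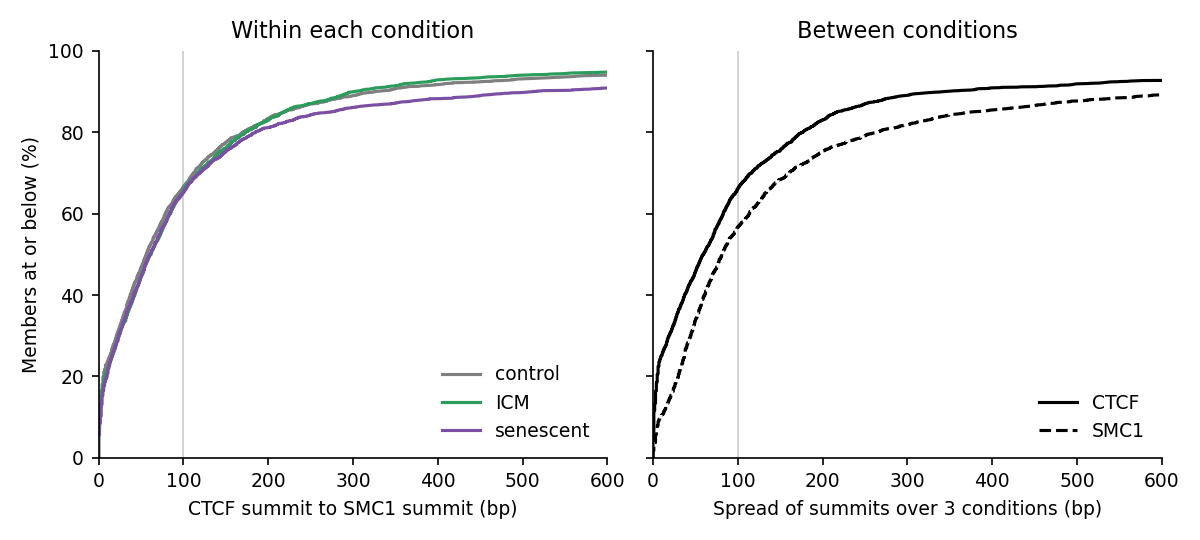
Cumulative share of the 2459 members (%) by distance (bp): left, from CTCF summit to nearest SMC1 summit within each condition; right, the largest distance between the summits of 1 protein over the 3 conditions. The grey line marks 100 bp, within which 66.7%, 65.8% and 65.3% of members lie on the left and 66.2% (CTCF) and 56.8% (SMC1) on the right.

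Summits also kept their place from condition to condition. The CTCF summits of the 3 conditions spanned a median of 60 bp (55 to 65), and the SMC1 summits nearest to them 81 bp (77 to 86). Between control and ICM-treated cells the median shift was 17 bp for CTCF and 34 bp for SMC1, and between control and senescent cells 33 and 51 bp. The CTCF span was 90 bp (82 to 99) at members within 1 kb of a 5′ end, 51 bp at 1 to 10 kb and 34.5 bp (30 to 40) beyond 10 kb. In 887 members (36.1%, 34.2 to 38.0) the CTCF summits, the SMC1 summits and the distances between the proteins were all within 100 bp, which held for 23.8% of promoter members and 45.1% of those beyond 10 kb.

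The widest member did not keep its summits. It spanned 13529 bp of chromosome 17 (50185305 to 50198833) inside COL1A1, the gene of the main chain of type I collagen. Its total signal was 139659, 36513 and 60880 in CTCF and 12989, 4058 and 40308 in SMC1, whereas its highest signal was only 35, 26 and 22 in CTCF and 10, 13 and 16 in SMC1. In senescent cells it was thus at percentile 99.97 of the SMC1 list by total signal, and after ICM at 53.4. Its CTCF summits lay up to 7007 bp apart, the largest span of any member, followed by CDK18 (4758 bp), TSPAN4 (4289 bp) and ATP5F1D (4175 bp). The member 2331 bp before BCL9L, a coactivator of Wnt signalling, spanned 11708 bp with 2 CTCF peaks in every list and 4, 5 and 6 SMC1 peaks, yet its strongest CTCF summits lay within 79 bp. COXFA4L2, at 11939 bp, and FIBP, at 10137 bp, also held several peaks with CTCF summits 14 and 83 bp apart.

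**Figure D3:**
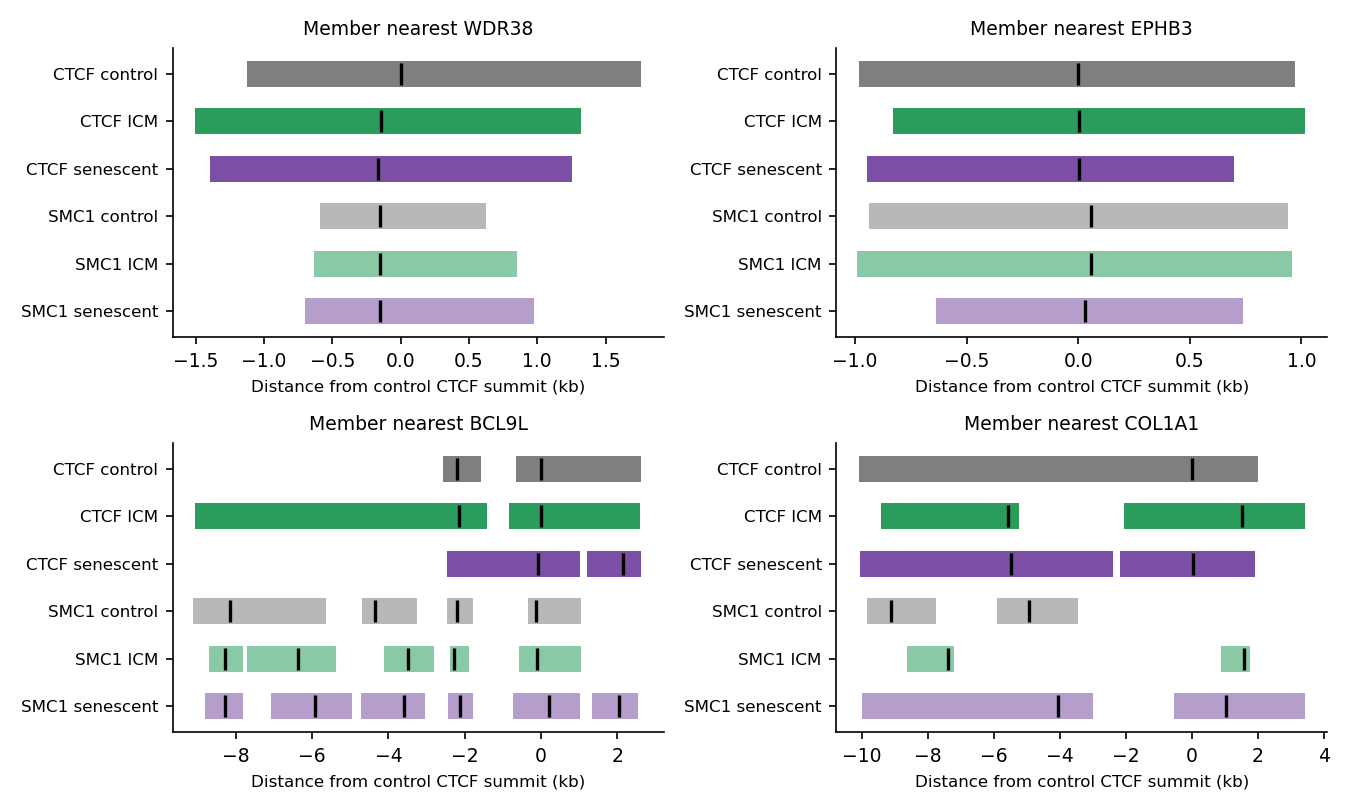
Peaks of the 6 lists at 4 members, drawn to scale against the distance from the control CTCF summit (kb); bars are whole peaks and black ticks their summits. At WDR38 and EPHB3 each list holds 1 peak, at BCL9L SMC1 is split into 4 to 6 peaks, and at COL1A1 the CTCF summits lie up to 7007 bp apart.

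With respect to genes, 1001 members (40.7%, 38.8 to 42.7) had their summit within 1 kb of an annotated 5′ end, 728 lay at 1 to 10 kb and 730 beyond 10 kb. The promoter share was 29.9% (27.1 to 32.7) for loci of all 3 CTCF lists with SMC1 in 1 or 2 lists, 28.7% (24.7 to 32.9) with SMC1 in none, and 22.0% for loci of a single CTCF list. This difference was seen with whole-peak overlap, also in lists of equal length (37.9% of members, 27.6% of other 3-list loci). It was not seen between summit windows, a setting that also redrew the CTCF loci. When overlap was required between 100 bp windows on the summits, 1190 loci qualified, and the promoter share was 31.8% (29.1 to 34.5) for these and 31.7% (29.6 to 33.9) for the other loci of all 3 CTCF lists. SMC1 listing alone was also frequent at promoters: of 4203 SMC1 loci in all 3 SMC1 lists without any CTCF peak, 38.9% (37.4 to 40.4) were within 1 kb of a 5′ end. Overlap with gene bodies was alike, at 59.5% for members and 60.3% for all CTCF loci.

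At the 696 promoter members with a single annotated start, summits lay mostly before it. Relative to the start, the median CTCF position was -101.5 bp in the control library, -105.5 bp after ICM and -127 bp in senescence, and the median SMC1 position was -103.5, -104 and -95.5 bp. Upstream of the start lay 65.4%, 63.5% and 67.5% of CTCF summits and 69.8%, 69.4% and 64.4% of SMC1 summits. Starts on both strands were found at 285 promoter members (28.5%).

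**Figure D4:**
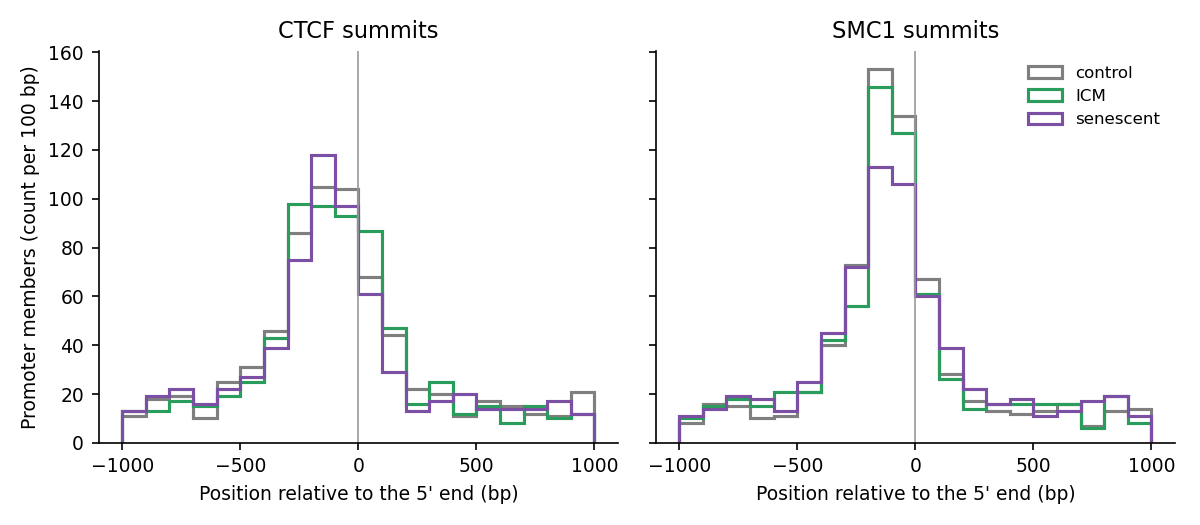
Number of promoter members per 100 bp by the position of the CTCF (left) and SMC1 (right) summit relative to the single annotated 5′ end (bp, negative before it), for the 3 conditions. All 6 distributions peak just before the start, with medians between -127 and -95.5 bp.

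Members at promoters and away from them differed in how they ranked across conditions. Each member was ranked by total signal among the 2459 members, separately in each list, so that the median over all members is percentile 50 in every list. Promoter members had a median CTCF rank of 56.8 (54.0 to 59.8) in the control library, 57.1 (53.3 to 60.9) after ICM and only 40.7 (36.7 to 44.3) in senescence. For members beyond 10 kb the medians ran the other way, from 41.0 (38.2 to 43.6) and 43.9 to 52.5 (49.6 to 55.7). Ranks among members are relative, so a fall in some members must go with a rise in others. In the whole CTCF lists promoter members stood at median percentiles of 70.5, 80.0 and 74.2 (control, ICM, senescent). Members beyond 10 kb stood at 57.2, 72.1 and 81.4. The median percentile of promoter members was thus not below its control value, although single promoter members, such as that at JUN, were. Because the senescent list was also the longest, these percentiles cannot show whether promoter signal fell. In senescent cells 32.2% (29.3 to 35.2) of promoter members ranked above their control CTCF rank, against 67.3% (63.7 to 70.7) of members beyond 10 kb, whereas in ICM-treated cells these shares were 50.8% and 51.0%. By highest signal promoter members stood at 50.3, 49.3 and 36.3, so their senescent rank was again the lowest of the 3.

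In SMC1, promoter members ranked at 63.1 (59.8 to 65.9) in the control library, 56.2 (53.1 to 59.8) after ICM and 56.8 (53.2 to 60.6) in senescence, above the members beyond 10 kb in each list (40.1, 46.0 and 43.4). In senescent cells 40.1% of promoter members ranked above their control SMC1 rank, against 55.2% of members beyond 10 kb, and after ICM 38.9% against 61.1%. These shares ran the same way as for CTCF in senescence, and no test compared the antibodies. By highest signal the senescent SMC1 medians were 47.1 in all 3 distance classes, where many values are tied. The CTCF control was of another p number than the SMC1 control, the difference was seen in 1 library each, and the part played by passage or library was not tested.

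**Figure D5:**
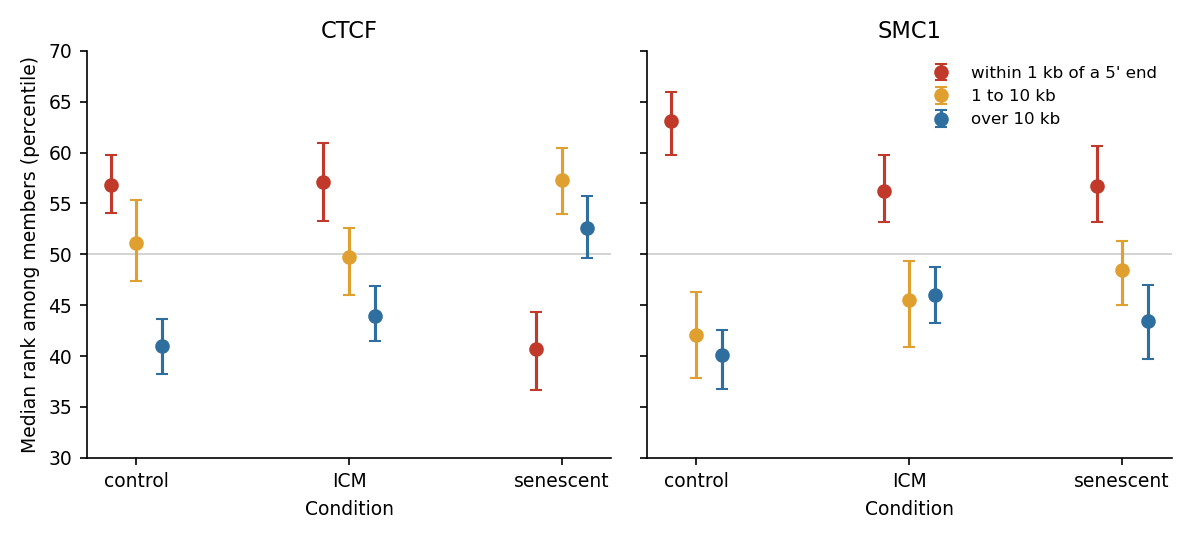
Median rank by total signal among members (percentile, within each list) for 1001 promoter members, 728 members at 1 to 10 kb and 730 beyond 10 kb; bars are 95% order-statistic intervals over loci. In CTCF the promoter members stand at 56.8 and 57.1 but at 40.7 in senescent cells, while in SMC1 they stand above 56 in each list.

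Across the 2459 members, ranks were most alike within an antibody. Spearman's rho of total signal was 0.845 between control and ICM CTCF, 0.681 between control and senescent CTCF and 0.630 between ICM and senescent CTCF. In SMC1 it was 0.778, 0.660 and 0.668. Between CTCF and SMC1 of the same condition it was 0.312, 0.293 and 0.195 (control, ICM, senescent), so a high CTCF rank said little of the SMC1 rank. By highest signal it was 0.237, 0.243 and 0.325, so the order of the conditions depended on the measure. Members had to be listed for both proteins, which narrows the range of ranks. These correlations are over loci of 1 library each, which share peak width and local background.

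Of 19630 protein-coding genes with a known strand, 999 (5.09%) had a member summit within 1 kb of the 5′ end, and over 13 lists of genes the share was 34 of 510 (6.67%). Of 22 genes of the CTCF and cohesin machinery 5 had a member at the start, namely CTCF itself, CHD8, which binds CTCF, ESCO1, which acetylates cohesin, PDS5B, a regulator of cohesin release, and STAG1, a cohesin subunit. Total CTCF signal at the STAG1 start was 68623, 89643 and 19006 and total SMC1 signal 33845, 15900 and 7521 (control, ICM, senescent). Totals of separate lists share no known scale, and the percentiles were 94.6, 93.4 and 83.2 in CTCF and 99.7, 98.8 and 88.3 in SMC1. The CTCF summits at STAG1 lay within 1 bp. At the CTCF start the total signals were 71525, 107218 and 18631 for CTCF and 17480, 8719 and 6773 for SMC1. The percentiles there were 95.1, 95.8 and 82.3 in CTCF and 95.7, 91.1 and 84.6 in SMC1. None of 39 HOX genes and none of 53 clustered protocadherins had a member at the start, against 5.09% of all protein-coding genes. In lists of this size few members would be met at that share, and the difference was not tested. CTCF is known for its part at both kinds of cluster, but members away from the starts were not counted for these lists.

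Genes of cell-cycle arrest had a member at 4 of 28 starts (14.3%), among them CDKN2B and CDKN2D. The share over all protein-coding genes was 5.09%, and no list was tested against it. CDKN2B, which encodes the inhibitor p15, had total signals (control, ICM, senescent) of 53833, 112980 and 18414 for CTCF and 18742, 15142 and 8261 for SMC1, and the CTCF percentile was lowest in senescent cells, at 81.9 against 90.6 in control. Cell cycle and replication genes had members at 2 of 48 starts (4.17%), near the share over all protein-coding genes. These were the starts of ORC6, a subunit of the origin recognition complex, and PCNA, the sliding clamp. The PCNA member also lay 146 bp before CDS2.

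Immediate early genes had a member at 4 of 27 starts (14.8%, against 5.09% of all protein-coding genes), those of DUSP1, EGR1, IER2 and JUN. JUN, a subunit of AP-1, was at SMC1 percentiles of 99.9, 99.9 and 99.8 but at CTCF percentiles of 60.5, 64.9 and 26.6. DUSP1, a MAP kinase phosphatase, was at 80.2, 94.7 and 31.3 for CTCF and at 98.1, 89.1 and 96.5 for SMC1. EGR1 was high in all, at 97.6 or more in every list, with CTCF and SMC1 summits 725, 1047 and 915 bp apart.

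Matrix genes had a member at 2 of 40 starts. High SMC1 percentiles were common at promoter members, whose median percentiles in the SMC1 lists were 86.7, 86.5 and 82.8. CCN2, a matricellular growth factor, was at CTCF percentiles of 35.2, 91.2 and 13.2 and SMC1 percentiles of 98.0, 99.6 and 93.6. THBS1, thrombospondin, was at 90.6, 97.5 and 69.2 for CTCF and above 99.9 in all SMC1 lists. The transcription factors of lung mesenchyme had members at 2 of 33 starts (6.06%), also near that share. SNAI2, a repressor of epithelial genes, was at CTCF percentiles of 54.2, 55.5 and 12.7 and SMC1 percentiles of 96.7, 90.5 and 94.3, and TBX3 was at 52.5, 53.7 and 43.7 for CTCF and 99.3, 99.6 and 94.5 for SMC1.

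Regulators of lamins and heterochromatin had members at 2 of 34 starts (5.88%), near the 5.09% of all protein-coding genes. CBX5, which encodes heterochromatin protein HP1 alpha, was at CTCF percentiles of 66.9, 73.1 and 14.0 and SMC1 percentiles of 97.8, 86.3 and 92.0. The member at SETDB2, a histone methyltransferase gene, lay 89 bp before CAB39L, at 11.1, 10.8 and 39.0 for CTCF and above 92 in SMC1.

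The remaining lists had shares from 3.57% (growth factor receptors) to 8.86% (ribosomal proteins), against 5.09% of all protein-coding genes. The secretory phenotype of senescence had 2 of 36 (5.56%), VEGFA, an angiogenic factor, and INHBA, a subunit of activin. VEGFA was above percentile 95 in every list, and INHBA was at CTCF percentiles of 30.7, 62.3 and 26.0 with SMC1 at 91.3, 90.3 and 79.4. Actin and mechanosensing genes had 3 of 44 (6.82%), at SRF, which encodes serum response factor, ZYX, the focal adhesion protein zyxin, and MYL9, a myosin light chain. SRF was at CTCF percentiles of 98.0, 99.5 and 97.7 with summits within 3 bp. MET was the single growth factor receptor of 28, at CTCF percentiles of 16.9, 62.9 and 17.9. Ribosomal protein genes had 7 of 79, of which RPL26 was the highest, at CTCF percentiles of 97.5, 97.4 and 97.9. These shares are descriptions and were not tested against the share over all protein-coding genes.

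Members were spread unevenly over chromosomes. Per 100 protein-coding genes there were 20.4 on chromosome 22, 17.1 on chromosome 17, 5.19 on chromosomes 4 and 18, and 1.89 on chromosome X. Neighbouring members lay a median of 226 kb apart (225722 bp, 206828 to 244736), and 244 members (9.92%) had another within 10 kb. The closest pair lay 2096 bp apart.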

How the data were processed

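CUT&Tag peak lists for CTCF and SMC1 in control, ICM-treated and senescent IMR90 cells were used, 1 library per group. Per the submitters' processing notes and the methods of the study, reads were aligned to GRCh38 with Bowtie2 2.3.4.1, with Picard 2.20.7 and deepTools also named, and E. coli reads served for calibration. The authors called peaks in each library separately with SEACR 1.3 in stringent mode, keeping the top 1% of regions. The deposited lists give a total signal (coverage summed over the peak) and a highest signal per peak. All were whole numbers, so no fractional scaling is visible. The lists give no depth, the methods state only a minimum number of reads, and signal was ranked only within a list. The study also kept only CTCF peaks with a canonical motif, a filter not rerun here. The CTCF lists used here held 4674, 6729 and 8578 peaks (control, ICM, senescent) with the mitochondrial peak. Each is only slightly more than the paper counts after that filter, so these lists were not wholly limited to peaks with the motif.

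Groups came from the titles. The titles with p number 34 carry no treatment, and the design text was the source for calling these libraries senescent. Loci, overlaps and distances were computed in Python 3.11.15 (pandas 2.3.3, scipy 1.17.1) and tested on simulated lists. The summit was the midpoint of the region of highest signal of the strongest peak, and the control CTCF summit was set against gene ends. A 5′ end was the outermost base of a RefSeq GRCh38.p14 gene with a known strand, available for 47057 of 59098 genes (79.6%) and 98.3% of protein-coding genes. Shares carry exact binomial (Clopper-Pearson) and medians order-statistic intervals, at a level of 95%. The members and gene lists were chosen with earlier results of these data known.

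Members named were the 6 highest by mean percentile of highest signal, the 4 widest, the 6 highest at protein-coding starts, the 4 with the largest CTCF summit span, the 3 nearest to each side of the rule, up to 3 per gene list and 5 for sequence. Motif cores were counted on both strands. Some members that this rule selects are not reported here.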

Additional observations from a re-analysis of the deposited data

Results flagged for a closer look

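In 5 measures the CTCF and SMC1 lists moved in opposite directions from control to another condition, which drew a closer look. With 1 library per group none of these differences was tested, and the CTCF control carries another p number than the SMC1 control. From control to senescent cells the share of list peaks at members fell by 23.2 percentage points in CTCF and rose by 2.40 points in SMC1. The share of nuclear signal at members fell by 20.6 points in CTCF and was 1.63 points higher in SMC1. The median percentile of members was 15.3 points higher in CTCF and fell by 0.89 points in SMC1. The median peak width at members fell by 493 bp in CTCF and was 22 bp higher in SMC1. From control to ICM-treated cells the width was 272 bp higher in CTCF and fell by 133 bp in SMC1. These shifts in width were not particular to members. Peaks outside members had median widths of 1727, 1866 and 1028 bp in CTCF (control, ICM, senescent) and 881.5, 729 and 983 bp in SMC1. The CTCF lists lengthened from control to senescent cells (4673 to 8577 peaks) and the SMC1 list shortened (14883 to 12927). The same members were counted in every list, so their share of list peaks follows list length by construction. Their share of signal and their median percentile also depend on how many other peaks a list holds. These 3 measures therefore do not show a difference between the proteins.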

How the results depend on the processing

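The loci and lists limit these values more than counting error does: each list is the top of 1 library whose depth the lists do not give, no condition has a replicate, and a locus missing from a list may lie just under its threshold. No paired analysis was possible because no result comes from a test. Of 102 alternative values, 58 lay inside the interval of the value reported (for counts, within 1.5 times it) and 44 outside, and the cause of a move was not tested except where the setting itself sets it.

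With 100 bp summit windows the members numbered 1190, which was 39.0% of 3-list CTCF loci, with a promoter share of 31.8% and 1.94% of protein-coding genes at their start. Their median percentiles were 58.5 (control) and 69.4 (ICM) in CTCF and 74.0, 81.0 and 73.6 in SMC1 (control, ICM, senescent). In lists restricted to peaks above their median the members numbered 1032, or 53.8% of 3-list loci, with promoter shares of 44.9% (36.5% for 3-list loci that were not members), 2.28% of protein-coding genes, and CTCF to SMC1 distances of 67 bp in control and 70 bp in ICM. With lists of equal length the promoter share was 37.9%, the CTCF summit span 53 bp and the gene share 3.40%. The promoter share was 33.6% within 500 bp, 47.2% within 2 kb, 34.6% for protein-coding genes alone and 44.7% with further annotated starts, while it was 24.1%, 35.0% and 24.1% for the other 3-list loci under the first 3 of these. The gene share was 4.26% within 500 bp and 5.95% within 2 kb. By highest signal the median percentiles were 74.1 (ICM) and 73.4 (senescent) in CTCF and 73.7, 75.1 and 71.5 in SMC1, and without loci of several CTCF peaks the ICM CTCF percentile was 74.7.

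The ranks of promoter members were recomputed under settings chosen after seeing the data. By highest signal they were 50.3, 49.3 and 36.3 in CTCF, and 58.7 (control) and 47.1 (senescent) in SMC1. By mean coverage they were 52.4 (ICM) and 51.3 (senescent) in SMC1, and with summit windows 60.8 in control CTCF and 67.4 and 60.5 in control and ICM SMC1. The senescent CTCF rank was below the control and ICM ranks under every one of these settings.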
